A study of Homo sapiens with 11 samples.

Results

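The response of leukaemia cells to added miR-99a, miR-100 or both was described on 8 of the 11 arrays of the study, those numbered replicate 1 or 2. The 8 arrays were chosen by their replicate number: 6 arrays of cells given an oligo of the miR-99/100 family, set against the 2 scrambled control arrays. The control group has no replicate 3, and the 3 treated arrays with that number were left out and are given only for comparison. The question was which genes lay on the same side of control whichever member of the family was added.

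The cells were Reh, an established line of human B-precursor leukaemia with the ETV6-RUNX1 fusion, and every array, control included, came from Reh cells that had been infected with virus particles and stably expressed miR-125b. They received precursor oligonucleotides by Lipofectamine: a scrambled control, miR-99a or miR-100 at 66 µM each, or miR-99a and miR-100 together at 33 µM of each, which keeps the total at 66 µM. The oligos were given again after 72 h and RNA was taken 48 h after the second dose. A single cell line was used, and the labels do not say whether a replicate number marks a separate culture and transfection. The p-values therefore measure the spread between these samples, which may be partly technical.

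MicroRNAs are short RNAs that guide Argonaute proteins to messenger RNAs, chiefly through the seed near their 5′ end, and lower the stability or translation of those messages. miR-99a and miR-100 belong to an old family whose reported targets include the growth kinase gene MTOR, the immunophilin gene FKBP5 and the chromatin remodeller gene SMARCA5. In the human genome each lies in a cluster that also encodes a copy of miR-125b, and raised levels of these microRNAs have been linked to vincristine resistance in this type of leukaemia.

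The mature sequences are shown because the pooled comparison rests on their likeness. They are from RefSeq (GRCh38.p14), 5′ to 3′, with the seed, bases 2 to 8, in capitals.
hsa-miR-99a-5p: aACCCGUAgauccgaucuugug
hsa-miR-100-5p: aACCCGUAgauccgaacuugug
hsa-miR-125b-5p: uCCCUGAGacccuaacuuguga
The first is encoded by MIR99A at chr21:16539101-16539122 on the plus strand and the second by MIR100 at chr11:122152275-122152296 on the minus strand. Their seeds are identical, and over 22 bases they differ at 1 position, U16A, counted from the 5′ end with the base of miR-99a first. miR-125b, shown because every cell including control carried it in excess, has another seed. The arrays measured messenger RNA, so they hold no direct reading of the mature microRNAs and no check that the oligos entered the cells.

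Expression was given as log2 values for 19775 genes, 1 probe set each, and a difference of 1 on this scale is a 2-fold change. Array medians lay between 5.95 and 5.98, and the number of arrays limits the precision. Markers of immature B cells were present: in control, DNTT, which adds bases at the joints of rearranging receptor genes, stood at 13.09 ± 0.03 and the B-cell factor gene PAX5 11.58 ± 0.09, against 5.79 ± 0.17 for the T-cell gene CD3D and 5.39 ± 0.05 for the myeloid gene LYZ (SD, n = 2). The myeloid markers had a median level of 5.57 over the 8 arrays, but AIF1, on that list, stood at a mean of 10.70 in control. None of the 19 T and NK cell, 16 myeloid, 11 erythroid and platelet or 16 fibroblast and epithelial markers measured was called. The 3′ minus 5′ difference of GAPDH, a sign of RNA integrity, was 0.52 to 0.58 in control and 0.53 to 0.63 in treated arrays, and the ranges overlapped. That of ACTB was much larger, 2.6 to 3.0 in control and 2.5 to 3.2 in treated arrays, also with overlap. Along the leading principal component, which held 28.7% of the variance, the control arrays stood at -11.5 and -10 and the 6 treated arrays between -2.2 and 9.17. Of the array's 62 control probe sets, 4 lay above control on all 6 treated arrays and 2 below, against 5.28% and 10.9% of all genes. Those above included the 5′ set of 18S ribosomal RNA (13.70 to 14.40 against 13.50 and 13.57). The 3′ set of the lysX spike-in was another (12.36 to 13.02 against 11.63 and 11.45). The 3′ set of 18S was among those below (5.743 to 5.977 against 6.017 and 6.055), and the middle set of 18S overlapped control. The part of the control probe sets in the results was not tested.

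Differences between cells given any miR-99/100 oligo and control cells were small. limma called 198 of 19775 genes (1.00%) at an adjusted p under 0.05, of which 77 (0.389%) rose and 121 (0.612%) fell. The rises were between 0.27 and 0.43 on the log2 scale and the falls between 0.27 and 0.54. The 6 treated arrays lay wholly above both control arrays in 1044 genes (5.28%) and wholly below them in 2157 genes (10.9%), a description with no test. Among called genes, all 6 treated arrays lay clear of both control arrays in 75 of the 77 rises and 120 of the 121 falls. At an unadjusted p under 0.05 there were 3443 genes (17.4%). The count of 198 rested on single arrays: limma called 0 genes without control replicate 1 or without either array of the combination, 3 without miR-99a replicate 2, 21 without miR-100 replicate 2 and 71 without miR-99a replicate 1, while all 198 kept their direction. That direction was largely fixed by the choice, since in nearly all of the 198 every treated array lay clear of both control arrays. The larger number of falls rested on a control array, since without control replicate 2 called rises outnumbered called falls. The count of 198 also rested on the scaling. Quantile normalization gave 329 calls split into 298 rises and 31 falls, where the deposited values gave 77 and 121. With 1 control array left, a weaker condition, 6889 genes (without replicate 1) or 7252 genes (without replicate 2) had all treated arrays on one side, against 3201 (16.2%) with both.

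**Figure D1:**
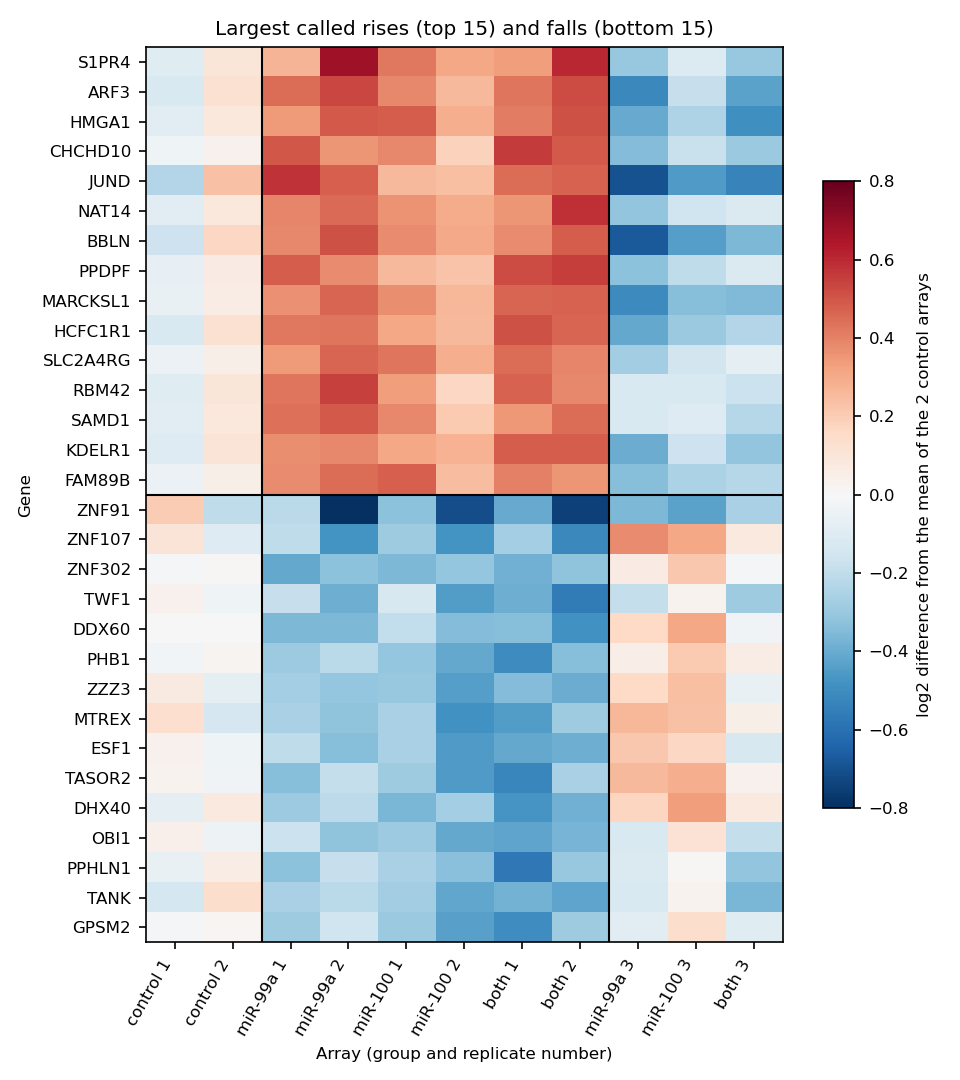
Difference of each array (columns) from the mean of the 2 control arrays, on the log2 scale, for the 15 largest called rises and the 15 largest called falls (rows), with vertical lines between control, treated replicates 1 and 2, and replicate 3. The 6 middle columns are red for every rise and blue for every fall because the genes were chosen for that, and in the replicate 3 columns the 15 rises are blue.

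Each oligo on its own gave fewer calls than the 3 together. limma called 0 genes for miR-99a and 0 for miR-100, with 1902 (9.62%) and 3412 (17.3%) at an unadjusted p under 0.05. For both oligos together 290 genes were called (1.47%), 182 up (0.920%) and 108 down (0.546%), with 3043 (15.4%) at an unadjusted p under 0.05. The count for both became 0 without control replicate 1 or either of its own arrays. Its split was 320 up and 62 down without control replicate 2, 137 and 25 after quantile normalization, and 160 and 283 with all 11 arrays and a term for replicate 3. The count for miR-99a became 41 without control replicate 2. These comparisons share the same 2 control arrays, so their values are set side by side here and were not taken as independent of each other. The 77 called rises had median differences of 0.36 in the miR-99a arrays, 0.24 in the miR-100 arrays and 0.40 in the arrays of both oligos. The 121 called falls had -0.25, -0.33 and -0.33 in the same order. Whether miR-100 gave smaller rises than the others was not tested over the list.

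The largest called rises included genes of a chromatin protein, a small GTPase, a lipid receptor and a transcription factor. HMGA1, which encodes an architectural chromatin protein that bends AT-rich DNA, stood at 10.57 and 10.73 in the control arrays and from 10.94 through a median of 11.10 to 11.16 in the 6 treated arrays. The groups did not overlap, and the difference of 0.42 ± 0.07 (SE) was a 1.34-fold rise (limma adjusted p = 0.0206). A second probe set of HMGA1 differed by 0.05. ARF3, a small GTPase of the Golgi, rose by 0.43 ± 0.07 (limma adjusted p = 0.0206), from 9.61 and 9.84 in control to between 9.98 and 10.26, with a median of 10.16. Its 2 other probe sets were higher by 0.25 and 0.19.

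S1PR4, a sphingosine-1-phosphate receptor of lymphoid cells, had the largest rise. It stood at 9.02 and 9.21 in control and from 9.39 to 9.79 (median 9.49) after treatment, a 1.35-fold difference (0.43 ± 0.09, limma adjusted p = 0.04). Both replicate 2 arrays of miR-99a and of the combination were the highest. JUND, a subunit of the AP-1 transcription factor, stood far apart in the 2 control arrays, at 10.32 and 10.79, and from 10.79 to 11.13 (median 11.02) in treated arrays. Its rise of 0.41 ± 0.09 passed (limma adjusted p = 0.04), yet the lowest treated array was nearly level with the higher control array. The control arrays stood farther apart than the change itself, and 3 other probe sets of JUND differed by 0.05, 0.24 and -0.02.

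Further AP-1 and growth genes, chosen after their values were seen, were called as well. JUNB, another AP-1 subunit, stood at 6.71 and 6.75 in control and at 6.93 to 7.10 in treated arrays and rose by 0.30 ± 0.06 (limma adjusted p = 0.0425). JDP2, a repressor that dimerizes with JUN proteins, rose by 0.38 ± 0.07 (limma adjusted p = 0.0206), although its other probe set differed by -0.08. CDK4, the G1 cyclin-dependent kinase, rose from 10.88 and 11.03 to between 11.09 and 11.37 (0.33 ± 0.07, limma adjusted p = 0.04).

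The other named rises were CHCHD10, a mitochondrial intermembrane protein, MARCKSL1, an actin-binding membrane protein, KDELR1, the receptor that returns proteins to the endoplasmic reticulum, RBM42, an RNA-binding protein, SAMD1, a CpG-island-binding protein, and NAT14, BBLN, PPDPF, HCFC1R1, SLC2A4RG and FAM89B. Their differences lay between 0.38 and 0.41. MARCKSL1 was typical: 11.20 and 11.32 in control, then 11.53 to 11.73 with a median of 11.68 in treated arrays (0.40 ± 0.07, limma adjusted p = 0.0206). Of the 77 called rises, 42 had other probe sets, and in 26 of those all of them pointed the same way.

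The largest falls included zinc finger and RNA helicase genes. ZNF302, a zinc finger gene, had closely matched control arrays, at 8.89 and 8.91, and treated arrays from 8.49 through a median of 8.56 to 8.60. Its groups stood well apart, and the fall of 0.35 ± 0.07 passed (limma adjusted p = 0.0264). Its 2 other probe sets differed by -0.08 and -0.19. ZNF91, which encodes a repressor of primate retrotransposons, had the largest fall of all but also a wide spread: 9.53 and 9.12 in control, and 8.51 to 9.11 (median 8.77) in treated arrays. The 3 replicate 2 arrays were its lowest, and the control array numbered 2 was the lower of the pair. The difference of -0.54 ± 0.12 (limma adjusted p = 0.0449) had an adjusted p of 0.119 in limma after quantile normalization. Of the 6 other probe sets of ZNF91, 3 were lower, and their differences ran from -0.23 to 0.05.

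Zinc finger symbols made up 8 of the 121 called falls (6.61%), against 2.78% of all genes and 1.9% of genes with a mean of 8 or more. That class was picked out after the values were seen, and near-identical zinc finger genes can share probes, so single members are uncertain. DDX60, an interferon-induced helicase, stood at 7.78 in both control arrays and at 7.30 to 7.59 (median 7.43) after treatment, a fall of 0.35 ± 0.07 (limma adjusted p = 0.0381). MTREX, the helicase of the nuclear RNA exosome, fell by 0.34 ± 0.08 (limma adjusted p = 0.0449). DHX40, a DEAH-box helicase, fell by 0.33 ± 0.07 (limma adjusted p = 0.04).

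PHB1, a subunit of the prohibitin ring in the inner mitochondrial membrane, stood at 10.14 and 10.18 in control and at 9.65 to 9.94 (median 9.83) in treated arrays. It fell by 0.34 ± 0.07 (limma adjusted p = 0.0384), while its other probe set differed by -0.04. TANK, an adaptor of innate immune signalling, fell by 0.33 ± 0.08, and GPSM2, which orients the mitotic spindle, by 0.33 ± 0.07 (both with a limma adjusted p of 0.0425). The remaining named falls, ZNF107, TWF1, ZZZ3, ESF1, TASOR2, OBI1 and PPHLN1, lay between -0.37 and -0.33. TWF1, an actin-monomer-binding protein, was less firm, since its 4 other probe sets were all higher, by 0.03 to 0.11. So were OBI1, whose other set was higher by 0.05, and ZNF107, whose other sets differed by 0.01 and -0.01. Of the 121 falls, 96 genes had other probe sets, and in 65 all of them were lower too.

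**Figure D2:**
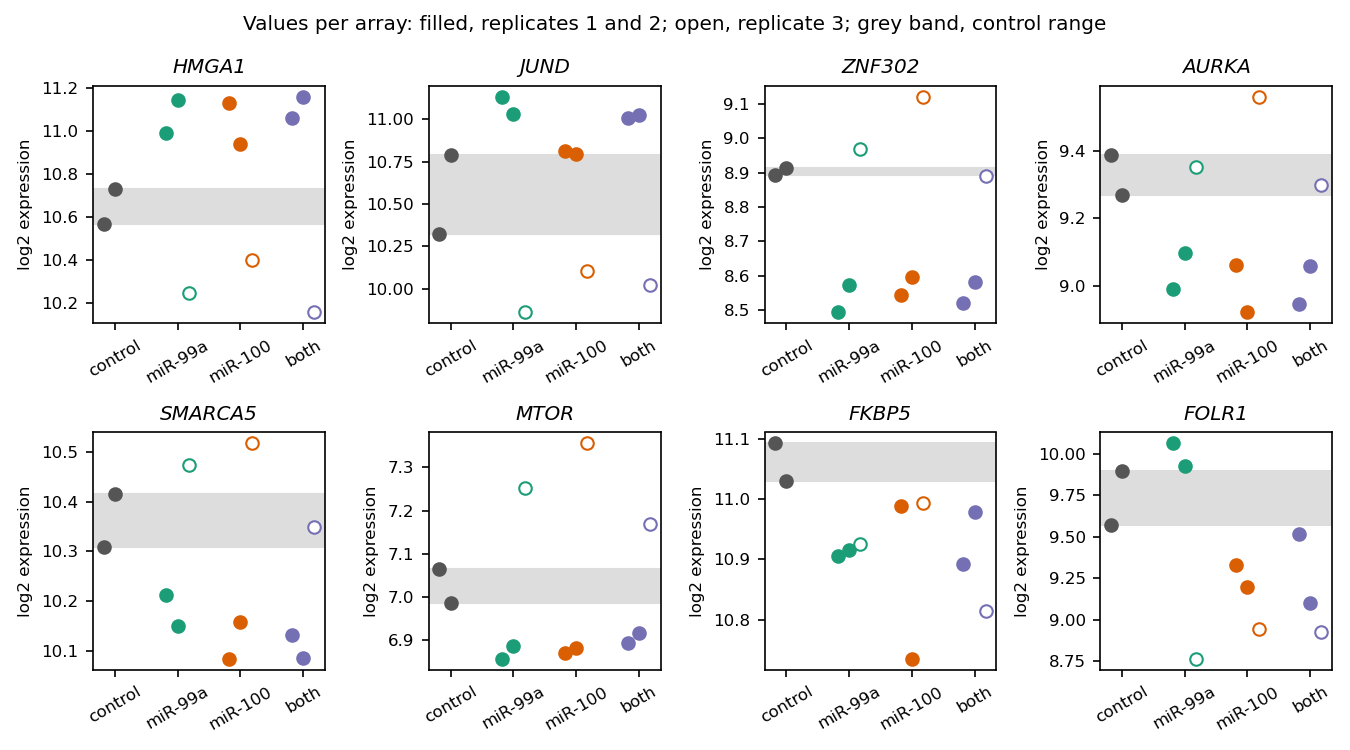
Log2 expression of 8 genes on each array, with the oligo on the horizontal axis, filled points for replicates 1 and 2, open points for replicate 3 and a grey band over the 2 control arrays. For HMGA1, ZNF302 and AURKA the 6 filled points lie clear of the band, while for FOLR1 the filled miR-99a points lie above the points of the other treatments.

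Reported targets of the family did not pass the test. None of the 30 measured was called, 11 were higher and 19 lower, and their median difference was -0.04 against 0.00 for all genes. After quantile normalization the median was also 0.00, and with the mean of all probe sets it was 0.01. All 6 treated arrays lay below both control arrays in 4 of the 30 (13.3%, against 10.9% of all genes), namely SMARCA5, FKBP5, MTOR and BMPR2. In 1 (3.33%, against 5.28%), PPFIA3, they lay above. By level the share of all genes below ran from 1.51% under 6 to 28.8% from 8 to 10.

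SMARCA5, the ATPase of ISWI chromatin remodelling complexes, came closest to a call. It stood at 10.31 and 10.42 in control and from 10.08 through 10.14 to 10.21 in treated arrays, a difference of -0.23 ± 0.07 (95% confidence interval -0.36 to -0.09, limma adjusted p = 0.0741). Its 2 other probe sets differed by -0.23 and -0.17. It stood lower with each treatment, at -0.18 for miR-99a, -0.24 for miR-100 and -0.25 for both.

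MTOR, the kinase at the centre of growth signalling, stood at 7.07 and 6.99 in control and at 6.86 to 6.92 (median 6.88) in treated arrays. The difference was -0.14 ± 0.07 (95% confidence interval -0.28 to -0.01, limma adjusted p = 0.254), and its other probe set differed the opposite way, by 0.17. FKBP5, an immunophilin that binds the glucocorticoid receptor complex, stood at 11.09 and 11.03 in control against 10.74 to 10.99 (-0.16 ± 0.07, limma adjusted p = 0.249). Its other probe sets differed by -0.10 and 0.04. BMPR2, a receptor of bone morphogenetic proteins, differed by -0.12 ± 0.07 (limma adjusted p = 0.382), and its other probe sets by -0.17 to 0.14.

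RPTOR, which encodes the scaffold of mTOR complex 1, differed by -0.04 ± 0.08, IGF1R, the insulin-like growth factor receptor, by -0.10 ± 0.08, and CTDSPL, a phosphatase, by -0.02 ± 0.07. BAZ2A, a partner of SMARCA5 in a nucleolar remodelling complex, stood higher by 0.13 ± 0.07, and TRIB2, a pseudokinase, by 0.01 ± 0.08. None of these 5 had treated arrays clear of both controls. The confidence interval of RPTOR, -0.20 to 0.12, shows the size of change that these arrays leave possible in either direction.

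In the mTOR pathway list, 1 of 22 genes was called. EIF4EBP1, which encodes the translation repressor 4E-BP1 that mTOR complex 1 inactivates, rose by 0.33 ± 0.08 (limma adjusted p = 0.0485), from 9.82 and 10.18 in control to between 10.24 and 10.44. Its control arrays stood farther apart than the change itself. All 6 treated arrays lay above control in 4 of the 22 (18.2%) and below in 5 (22.7%). Of all genes at the list's level, 6 to 8, the shares were 5.53% and 9.34%. The list's median level, 7.67, is near the edge of that class, and from 8 to 10 the shares were 3.95% and 28.8%. The median of the list, -0.03, changed sign to 0.01 after quantile normalization. Of the 26 SWI/SNF and ISWI remodellers none was called and 22 were lower, with a median of -0.06 that came to 0.00 after quantile normalization. All 6 treated arrays lay below control in 5 of the 26 (19.2%, against 28.8% of all genes at the list's level, 8 to 10).

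Genes of mitosis and DNA replication were lower in treated cells. Of 54 mitosis and spindle genes, 45 were lower and 9 higher, 4 were called down and 0 up, and in 23 (42.6%, against 10.9% of all genes and 28.8% of those at the list's level, a mean of 8 to 10) all 6 treated arrays lay below both control arrays. The list median was -0.19, and -0.13 after quantile normalization. AURKA, the kinase that matures the spindle poles, stood at 9.39 and 9.27 in control and at 8.92 to 9.10 (median 9.02) in treated arrays, a fall of 0.32 ± 0.07 (limma adjusted p = 0.0425). HMMR, a spindle-associated receptor of hyaluronan, fell by 0.32 ± 0.08 (limma adjusted p = 0.0474). KIF23, the kinesin of the central spindle, fell by 0.29 ± 0.07, and ECT2, the exchange factor that starts cytokinesis, by 0.29 ± 0.07. The other probe sets of AURKA differed by -0.25 and -0.03, and that of KIF23 by -0.01. Those of HMMR (-0.26) and ECT2 (-0.14 and -0.13) were lower too.

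Of 49 DNA replication genes, 44 were lower, 3 were called down and 0 up, and in 19 (38.8%, against the same 28.8%) all 6 treated arrays lay below control. That share also varied with gene span. Among genes with a mean of 8 or more it was 11.6% under 10 kb and 21.6% from 10 to 30 kb. From 30 to 100 kb it was 35.3%, and for longer genes 33.7%. Neither this list nor that of mitosis was matched by span, and the part of span in their shares was not tested. RRM1, the large subunit of ribonucleotide reductase, stood at 11.11 and 11.14 in control and at 10.72 to 10.96 (median 10.83) after treatment, a fall of 0.30 ± 0.07 (limma adjusted p = 0.0476). PRIM2, a subunit of primase, fell by 0.31 ± 0.07 and RFC5, a subunit of the clamp loader, by 0.28 ± 0.07. The list median was -0.14, ranging from -0.23 to -0.05 over the 6 arrays, and stood at -0.09 after quantile normalization and -0.07 over all 11 arrays. On each of the 6 arrays both list medians lay below control, while on the replicate 3 arrays that of mitosis lay above control on all 3 and that of replication on 2. The share of dividing cells was not measured, and in bulk RNA fewer cells of a kind and less RNA per cell cannot be told apart.

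Protein folding and degradation genes were also lower. Of 25 heat shock and chaperonin genes, 20 were lower, 2 were called down, and in 13 (52%) every treated array lay below control, against 10.9% of all genes and 23.0% of those at the list's level, 10 to 12. CCT6A, a subunit of the chaperonin that folds actin and tubulin, had control arrays at 10.85 and 10.84 and treated arrays at 10.47 to 10.66 (median 10.54), a fall of 0.29 ± 0.07 (limma adjusted p = 0.0476). DNAJC7, a co-chaperone, fell by 0.30 ± 0.07, while its 2 other probe sets differed by -0.02 and 0.09. Of 27 proteasome subunits, 23 were lower and 1 was called. In 10 of the 27 (37.0%, against the same 23.0%) every treated array lay below control. The called member, PSMB7, a catalytic subunit, fell from 11.22 in both control arrays to between 10.76 and 11.06 (-0.30 ± 0.07, limma adjusted p = 0.0425). The list medians were -0.18 for chaperones and -0.13 for the proteasome, and -0.18 and -0.10 after quantile normalization.

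Of 37 type I interferon response genes, 2 were called down, 25 were lower, and in 13 (35.1%) all 6 treated arrays lay below control. The share was 9.34% of all genes at 6 to 8, the class of the list's median level, 7.67. That level is near the edge of its class, and from 8 to 10 the share was 28.8%. Members were not matched by level 1 by 1. Beside DDX60, SAMD9, an interferon-inducible gene, stood at 7.93 and 7.88 in control and at 7.47 to 7.78 in treated arrays (-0.31 ± 0.07, limma adjusted p = 0.0425). None of the 37 had all treated arrays above control. The list median was -0.09, and -0.06 after quantile normalization.

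None of the 31 genes of the microRNA machinery was called. Of these, 26 were lower and 8 (25.8%) had every treated array below control, against 28.8% of all genes at the list's level, 8 to 10. DICER1, the enzyme that cuts microRNA precursors, stood at 9.43 and 9.37 in control and at 9.15 to 9.25 in treated arrays (-0.21 ± 0.07, limma adjusted p = 0.0871). AGO4, an Argonaute, differed by -0.23 ± 0.07 (limma adjusted p = 0.073). CNOT3, a subunit of the deadenylase complex, differed the other way, by 0.21 ± 0.06 (limma adjusted p = 0.0839). Its 2 other probe sets differed by -0.06 and -0.01.

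Genes of the ribosome and of oxidative phosphorylation tended to be higher, unevenly across the oligos. Of 52 cytoplasmic ribosomal protein genes measured, 40 were higher and in 10 (19.2%, against 5.28% of all genes and 11.8% of those at 12 or above) all 6 treated arrays lay above control, but none was called up. The list median was 0.15 over the 3 treatments, and split by oligo it was 0.01 (miR-99a), 0.08 (miR-100) and 0.35 (both). After quantile normalization it came to 0.01. The 2 members called, RPL27A and RPLP2, fell, by 0.37 ± 0.08 and 0.28 ± 0.07 (limma adjusted p = 0.0425 and 0.0476). Their probe sets were far dimmer than the list's median level of 13.87, with RPL27A at 7.44 and 7.29 and RPLP2 at 6.12 and 6.07 in control. The other probe set of RPLP2 differed by 0.03.

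Of 67 oxidative phosphorylation subunits, 48 were higher and 1 was called: COX7B, a subunit of cytochrome c oxidase, rose from 12.48 and 12.80 in control to between 12.87 and 13.09 (0.32 ± 0.08, limma adjusted p = 0.0476). The other probe set of COX7B differed by -0.03. The list median of 0.14 depended on the controls, at 0.02 without control replicate 1 and 0.26 without control replicate 2. In 5 members (7.46%) every treated array lay above control and in 5 (7.46%) below. Of all genes at the list's level, 10 to 12, the shares were 5.47% and 23.0%. Among those below was NDUFA9, a complex I subunit that differed by -0.31 ± 0.08 (limma adjusted p = 0.0504). Among 77 mitochondrial ribosomal protein genes none was called, and their median of -0.05 changed sign to 0.02 after quantile normalization.

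Core splicing factors went both ways. Of 43 measured, 18 were higher and 25 lower, and 2 were called, both up. SF3A2, a subunit of the U2 particle, stood at 8.74 and 8.67 in control and at 8.89 to 9.20 (median 9.04) in treated arrays (0.34 ± 0.07, limma adjusted p = 0.04), and its other probe set was higher by 0.36. RBM42 was the other. In 8 members (18.6%) every treated array lay below control and in 5 (11.6%) above. Of all genes at the list's level, 10 to 12, the shares were 23.0% and 5.47%. Among those below was SF3B1, a core U2 component, by -0.20 ± 0.07 (limma adjusted p = 0.122).

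Genes tied to vincristine, a drug that blocks microtubule assembly, were not called. Among 24 measured, 9 were higher and 15 lower, with a median of -0.01. ABCB1, the efflux pump gene, stood at 6.60 and 6.68 in control and at 6.42 to 6.84 in treated arrays (-0.01 ± 0.08, 95% confidence interval -0.18 to 0.16). TUBB, a beta-tubulin, differed by 0.16 ± 0.07 (limma adjusted p = 0.227), STMN1, a microtubule destabilizer, by -0.14 ± 0.08, and MCL1, a survival factor, by -0.04 ± 0.07. ABCB4, a phospholipid transporter, was the sole member with all 6 arrays above control, at 5.43 to 5.61 against 5.38 and 5.28, close to the lowest levels on the arrays.

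None of the lineage genes of these cells was called. Of 27 B-precursor markers 13 were higher and 14 lower. Every treated array was below control in 5 of them, IL7R, MME, RAG2, CD38 and FLT3 (18.5%, against 23.0% of all genes at the list's level, 10 to 12). IL7R, the interleukin-7 receptor chain, stood at 11.66 and 11.59 in control and at 11.30 to 11.51 in treated arrays (-0.23 ± 0.07, limma adjusted p = 0.0737). CD79A, a signalling chain of the B-cell receptor, differed by 0.29 ± 0.09 (limma adjusted p = 0.0765), with treated arrays from 9.38 to 9.82 that overlapped control at 9.24 and 9.47.

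**Figure D3:**
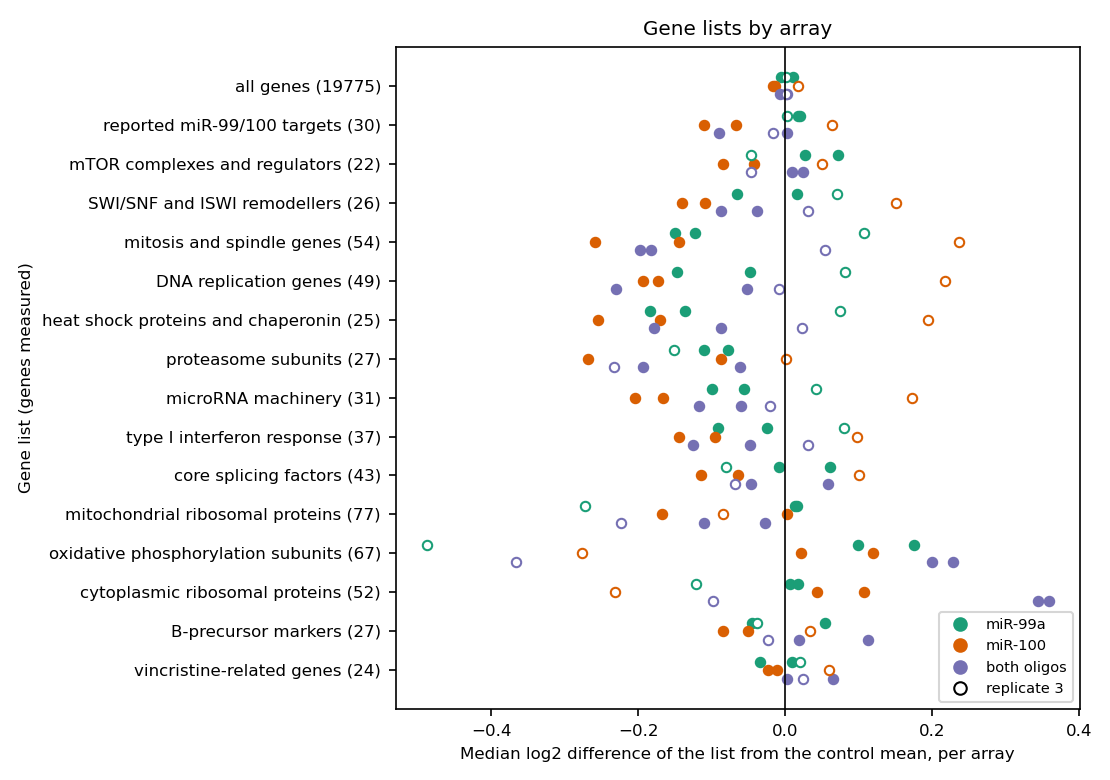
Median log2 difference from the control mean for each gene list (rows, with the number of genes measured) on each treated array, coloured by oligo, with open points for replicate 3. The 6 filled points of the mitosis, DNA replication, chaperone, proteasome, microRNA machinery and interferon lists all lie left of 0, and the both-oligo points of the cytoplasmic ribosomal proteins lie farthest right.

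The 3 treatments differed from each other in 1 gene. The moderated F test of limma called FOLR1 (0.00506% of genes, adjusted p = 0.0251), with 1190 genes (6.02%) at an unadjusted p under 0.05. FOLR1, a folate receptor, stood at 9.57 and 9.89 in control, at 10.06 and 9.92 with miR-99a, at 9.33 and 9.20 with miR-100, and at 9.52 and 9.10 with both. The miR-99a arrays were the highest of the 8, and neither overlapped the miR-100 or combination arrays. The miR-100 level was lower than the miR-99a level by -0.73 (95% confidence interval -0.96 to -0.49, limma adjusted p = 0.0303), and the combination by -0.69 (-0.92 to -0.45, limma adjusted p = 0.0662). Its other probe set differed from control by 0.01, and the F test no longer called it after quantile normalization or without either miR-99a array, either miR-100 array or combination replicate 2.

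For the other genes a difference between these oligos was not called, which does not show that they act alike. For HMGA1 the interval of the miR-100 minus miR-99a difference ran from -0.22 to 0.15, and for AURKA from -0.23 to 0.13, each about as wide as the change from control. For JUND it lay below 0, from -0.50 to -0.06, with an adjusted p of 0.776 in limma's F test.

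On the left-out replicate 3 arrays most called genes stood away from the level of replicates 1 and 2. Within treatments limma called 5794 genes (29.3%) between replicate 3 and replicates 1 and 2, 3382 (17.1%) higher and 2412 (12.2%) lower in replicate 3. All 77 called rises stood lower in replicate 3, and 76 of them were called lower; of the 121 called falls 115 stood higher and 102 were called higher. Both contrasts use the same 6 treated arrays, in which the genes were picked for being high or low, so these counts are not independent of the choice. Against the control mean, the median of the 77 rises was 0.21 to 0.40 on the 6 arrays and -0.40, -0.22 and -0.30 on the replicate 3 arrays of miR-99a, miR-100 and both.

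HMGA1 showed this gene by gene. Its replicate 3 values were 10.25, 10.40 and 10.16, all below both control arrays, while the other 6 treated arrays lay above them. JUND stood at 9.86, 10.10 and 10.02 there, also below control. For the falls, the median of 121 genes was -0.38 to -0.23 on the 6 arrays and 0.03, 0.15 and -0.08 on the replicate 3 arrays, which is near control. In 17 of the 121 all 3 replicate 3 arrays lay below both control arrays, as for ZNF91, at 8.96, 8.89 and 9.06, and in 28 above them. Over all 19775 genes the counts were 3410 below and 3585 above. MTOR stood at 7.25, 7.36 and 7.17 in replicate 3, above both control arrays, and SMARCA5 at 10.47, 10.52 and 10.35. With all 11 arrays in one fit limma called 0 genes for any oligo (lowest adjusted p = 1.0), and with a term for replicate 3 it called 24. No control array carries the number 3, so a general difference of these arrays from the others and a difference in response to the oligos cannot be told apart.

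The called groups differed in the span of their genes. The 77 rises had a median span of 8.53 kb from start to end of the gene and the 121 falls 46.1 kb, against 24.7 kb for all genes and 30.3 kb for the 5512 genes with a mean of 8 or more. Among those brighter genes, the median difference fell from 0.04 for 1122 genes under 10 kb to -0.06 for 1616 genes of 10 to 30 kb, -0.12 for 1909 genes of 30 to 100 kb and -0.12 for 864 longer genes. All 6 treated arrays were below control in 11.6%, 21.6%, 35.3% and 33.7% of these genes, and above it in 12%, 4.89%, 1.78% and 1.16%. The relation is across genes, which are not independent replicates, and has no test here. The gene lists above were set against genes of like level and not of like span, so the part of span in their shares was not tested.

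The same gradient appeared between arrays of one group. The second control array minus the first had medians of 0.12, 0.09, 0.05 and 0.05 over the same classes of span. Replicate 3 minus replicates 1 and 2 had the opposite gradient, from -0.22 for genes under 10 kb through 0.00 and 0.15 to 0.20. After quantile normalization the treated minus control medians were 0.07, 0.00, -0.05 and -0.05. The part of array handling in the gradient was not tested.

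**Figure D4:**
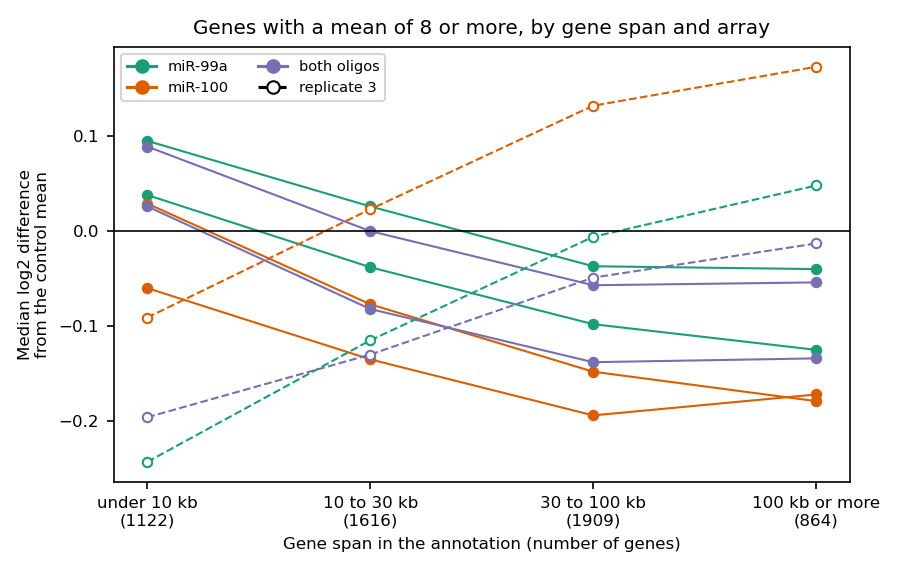
Median log2 difference from the control mean for genes with a mean of 8 or more, by class of gene span (horizontal axis, number of genes in brackets), with 1 line per treated array and dashed lines for replicate 3. On all 6 arrays of replicates 1 and 2 the line is higher for genes under 10 kb than for those of 100 kb or more, and on the replicate 3 arrays the order is turned.

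The difference also followed the level of the gene. The median was 0.02 for 7900 genes with a mean under 6, -0.01 from 6 to 8, -0.10 from 8 to 10, -0.04 from 10 to 12, and 0.09 for the 263 genes at 12 or above. All 6 treated arrays lay below control in 28.8% of genes from 8 to 10 and in 1.51% of genes under 6. After quantile normalization these medians lay between -0.02 and 0.02, so the shares of rises and falls given above hold for the deposited scaling. In promoter windows around the gene start in RefSeq (GRCh38.p14), the median GC content was 66.3% for 68 of the rises and 61.7% for 109 of the falls, against 65.3% for 4681 of the brighter genes. The letters GGGCGG, searched on both strands, were found in 77.9% and 61.5% of these promoters and in 72.5% of those of the brighter genes, which describes the letters and not a bound factor.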

How the data were processed

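The deposited values are on a log2 scale, as their range from 4.398 to 14.839 shows. Per the labels' protocols, total RNA was extracted with Trizol and labelled with a one-cycle kit for Affymetrix arrays. How probe sets were summarised and normalized is not given in the sources used here, and these steps set how the brightest and dimmest genes compare between arrays.

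Of 54675 probe sets, 62 controls, 11777 without a gene and 1801 with several genes were left out of the gene comparisons. Each of 19775 genes was represented by its single-symbol probe set with the highest mean over the 11 arrays, and 41037 of 41091 probe sets matched RefSeq (GRCh38.p14). No filter on dim genes was applied. A mean per group was fitted to 8 arrays with limma 3.58.1 in R 4.3.3 (lmFit, eBayes, 4 residual degrees of freedom), and the 3 treatment means were averaged against control. P-values are 2-sided and adjusted by Benjamini-Hochberg over all genes, with a threshold of 0.05. Replicate 3 was compared in the 9 treated arrays with a mean per treatment.

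Named genes were the 15 largest called rises and falls at or above the median level with no overlap between groups, set lists of reported targets and vincristine genes, and up to 4 members of each list described. Genes outside that rule are said to be chosen later. The members and lists were chosen with earlier results of these data known, and the lists were written from general knowledge. Alternatives were a replicate block, all 11 arrays, a term for replicate 3, quantile normalization, a level filter, the mean of probe sets, an intensity trend, 1 treated group, and leaving out each array.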

Additional observations from a re-analysis of the deposited data

Results flagged for a closer look

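FOLR1, the folate receptor gene, was the single gene for which the 3 treatments differed from each other (limma F test, adjusted p = 0.0251). It was higher with miR-99a than with miR-100 or both oligos in replicates 1 and 2, while the replicate 3 arrays of miR-99a, miR-100 and both stood at 8.77, 8.94 and 8.93, all below control and in no such order.

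Some control probe sets of the array, which no comparison of genes used, also differed between treated and control arrays. The 3′ probe set for lysX, a bacterial transcript added as a spike-in, stood at 11.63 and 11.45 in control and at 12.36 to 13.02 in the 6 treated arrays, a difference of 1.12 that exceeds that of any called gene. Other probe sets for the same spike-in did not separate the groups: the 5′ set stood at 7.88 and 7.01 in control and at 7.50 to 8.04 in treated arrays. The replicate 3 arrays read 11.64, 11.51 and 11.99 on the 3′ set. The 5′ probe set of 18S ribosomal RNA stood at 13.50 and 13.57 in control and at 13.70 to 14.40 in treated arrays, a difference of 0.59. Its 3′ set went the other way, from 6.017 and 6.055 in control to between 5.743 and 5.977 in treated arrays. The middle set of 18S overlapped control. Of 62 control probe sets, 4 had all treated arrays above both control arrays and 2 below, against 5.28% and 10.9% of all genes. Those above also included the 3′ and middle sets of ACTB, a gene of the cells themselves. The part of the control probe sets in the gene differences was not tested.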

How the results depend on the processing

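The count of 198 genes for any oligo became 329 after quantile normalization (97 shared), 574 without genes below the median level, 91 with 1 treated group, 24 with a term for replicate 3, 16 with an intensity trend, and 0 with all 11 arrays or the mean of all probe sets. The count for both oligos, 290, became 443 with the replicate 3 term, 182 with the trend, 162 after quantile normalization, 27 with the mean of probe sets and 0 with all 11 arrays. The count for miR-99a, 0, became 24 after quantile normalization. The F test called 0 genes with all 11 arrays, with the replicate 3 term, after quantile normalization and with the mean of probe sets. Genes with all treated arrays on one side of control numbered 3201, and 575 with all 11 arrays. Leaving out 1 array gave 0 to 240 calls for any oligo, 0 to 41 for miR-99a, 0 for miR-100, 0 to 382 for both and 0 to 1 for the F test, and 3588 to 7252 genes on one side, the largest without control replicate 2. A group left with 1 array is assumed to vary like the others. The cause of these changes was not tested.

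With the replicate number as a block, 1146 genes were called for any oligo (all 198 among them), 47 for miR-99a, 322 for miR-100, 754 for both and 1 by the F test. Deviations of arrays with the same number correlated at -0.032 to 0.254 over 6 pairs of groups, so the number was not taken as a pairing. Among genes given above as not called, the calls with the block included SMARCA5 (limma adjusted p = 0.0388), RAG2 (0.0366), MME (0.0361), IL7R (0.0384) and CD79A (0.0304). They also included AGO4 (0.0309) and CNOT3 (0.0484) of the microRNA machinery. Every one of the 198 genes that an alternative held kept its direction, except 1 gene with all 11 arrays. That direction was largely fixed by the choice of these genes and is no separate support. Of the 198, 194 had a level at or above the median. With 2 control arrays, a fall or rise below about 0.27 was not called at this size.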
